A study of Homo sapiens with 6 samples.

Results

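Clone WT37 is 1 of 3 clones of DLD-1, an established line of epithelial cells from a human colorectal tumour, that the labels name ZEB2 WT2, ZEB2 WT5 and ZEB2 WT37. ZEB2 is a transcription factor with zinc fingers that can silence genes of epithelial cells. Each clone was sequenced once without DOX (the usual short name of doxycycline) and once with it, so that WT37 holds 2 of the 6 libraries and the other clones hold 4. Libraries were taken for WT37 by their column names and set against the 4 libraries of WT2 and WT5, with DOX as a covariate, over genes outside chromosomes X and Y. All 6 libraries are labelled ZEB2 WT, so no library here comes from cells without that label, and DOX is the only treatment named. The column names of all 6 libraries also hold the tag TR21 after the name of the line. The RNA was read with a 3' mRNA kit (QuantSeq 3' mRNA-Seq FWD), in which a transcript gives 1 read near its poly(A) tail whatever its length. The question is which genes stood at another level in WT37 apart from DOX. WT37 is 1 clone, so a p-value here compares these libraries and does not speak for other clones.

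Cells of a cancer line grown out from single cells can carry different heritable states of DNA, chromatin and gene expression, and such differences can stay with a clone through a later treatment. Small nucleolar RNAs (snoRNAs), which guide the chemical modification of ribosomal RNA, are mostly cut out of the introns of longer host genes. The spliced host RNA that remains is often non-coding, short-lived and removed in the course of translation, and many hosts share their start sequence with genes of ribosomal proteins.

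Autosomal genes took 5314757 to 7007914 reads in each library, and the 2 WT37 libraries were the deepest (7007914 and 6953753 reads). Reads that mapped to several places made up 11.8% and 12% of the WT37 libraries and 14.6% to 16% of the others, and reads outside any annotated feature made up 8.72% and 9.82% against 10.7% to 11.7%. Their part in the results below was not tested. Log2 levels of the 6 libraries correlated at 0.959 to 0.983 across genes, and the WT37 pair at 0.975. Markers of colon epithelium summed to 6930 and 4250 CPM (counts-per-million, scaled to library size) in WT37 and to 5860 to 8790 in the others, while those of fibroblasts (at most 1.96), endothelium (at most 0.512) and neurons (at most 0.702) were near 0 in every library, and those of immune cells stood at 9.68 and 8.84 in WT37 and 5.75 to 12.5 in the others. ZEB2 itself had 3 reads in WT37 without DOX and 22 with DOX, beside 9 and 20 in WT2 and 5 and 9 in WT5. The level of ZEB2 in WT37 did not pass the test against the other clones (log2 difference -0.23 ± 0.59 SE, adjusted p = 0.861).

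Of 11789 autosomal genes tested, 389 differed between WT37 and the other clones (called here when edgeR's quasi-likelihood test gave a Benjamini-Hochberg adjusted p under 0.05), which is 3.3% of the genes tested. Of these, 213 (1.81%) were higher in WT37 and 176 (1.49%) were lower. The higher genes moved further, with a median log2 difference of 0.97 against -0.65 for the lower ones, and 102 of the 124 genes that differed at least 2-fold were higher. In 374 of the 389 genes both WT37 libraries lay outside the range of the other 4 libraries. Over all genes tested both WT37 libraries lay above the other 4 in 15.2% and below them in 13.9%, and the median log2 difference was 0.001. Without regard to sign, the median difference over all genes tested was 0.22 on the log2 scale between WT37 and the other clones and 0.17 between WT5 and WT2. The number of calls rested on both WT37 libraries, with 30 genes called without its library without DOX and 7 without its library with DOX. It was 94 without the WT2 library without DOX, 212 and 200 without the WT2 library with DOX and the WT5 library without DOX, 1714 without clone WT5 and 363 without clone WT2.

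The 7 genes called in all 17 fits, that is under each scaling, filter, tool and left-out library or clone, were EEF1A2, ITGA9, SNHG1, SNHG9, SNHG25 and GAS5, which were higher in WT37, and PXMP4, which was lower. These 7 were picked out after the values were seen, and GAS5 and SNHG1 were not among the 8 genes called when a fold of 2 was tested. EEF1A2 (ENSG00000101210, chr20:63488012-63499322, GENCODE 29 on GRCh38) encodes a form of the translation elongation factor eEF1A that is otherwise typical of neurons and muscle. Its level was 5.76 and 13.5 CPM in WT2, 10.2 and 27.0 CPM in WT5 and 116 and 156 CPM in WT37, without and with DOX in that order, as for all values given in this order below. Both WT37 libraries stood far above the other 4, and the gene was 3.35 ± 0.26 (SE) higher on the log2 scale (adjusted p = 0.00048). ITGA9 (ENSG00000144668, chr3:37452115-37823514), the integrin alpha 9 chain that pairs with integrin beta 1, had 4.17 and 6.42 CPM in WT2, 8.88 and 6.01 in WT5 and 36.1 and 39.2 in WT37. The 2 WT37 values lay close together and the groups did not overlap (log2 difference 2.55 ± 0.23, adjusted p = 0.000645).

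PXMP4 (ENSG00000101417, chr20:33702754-33720319), a membrane protein of peroxisomes, was nearly absent from WT37. It had 76 and 98 reads in WT2, 91 and 102 in WT5 and 1 and 8 in WT37, which is 15.1, 16.6, 15.5 and 14.9 CPM against 0.14 and 1.07 CPM. The 4 other libraries agreed within a narrow range, at 15.5 ± 0.733 CPM (SD, n = 4). The exact 95% Poisson intervals, which cover counting error only, were 0.00355 to 0.781 CPM for WT37 without DOX and 0.462 to 2.11 CPM with DOX. The log2 difference was -4.63 ± 0.42 (adjusted p = 0.000665), and 0 of the 19 tested genes within 1 Mb of PXMP4 were called (median log2 difference -0.01), with 3 under an unadjusted p of 0.05 in edgeR and 0 called by DESeq2 or limma-voom. The 300 bases around its RefSeq start hold 15 CpG dinucleotides, for a ratio of observed to expected CpG of 0.665, where the median over 9005 promoters of tested genes was 27 CpG and a ratio of 0.852. Among called genes the ratio was above 0.6 in 72.8% of 158 promoters of higher genes and in 89.4% of 142 promoters of lower genes, against 85.6% of all.

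**Figure D1:**
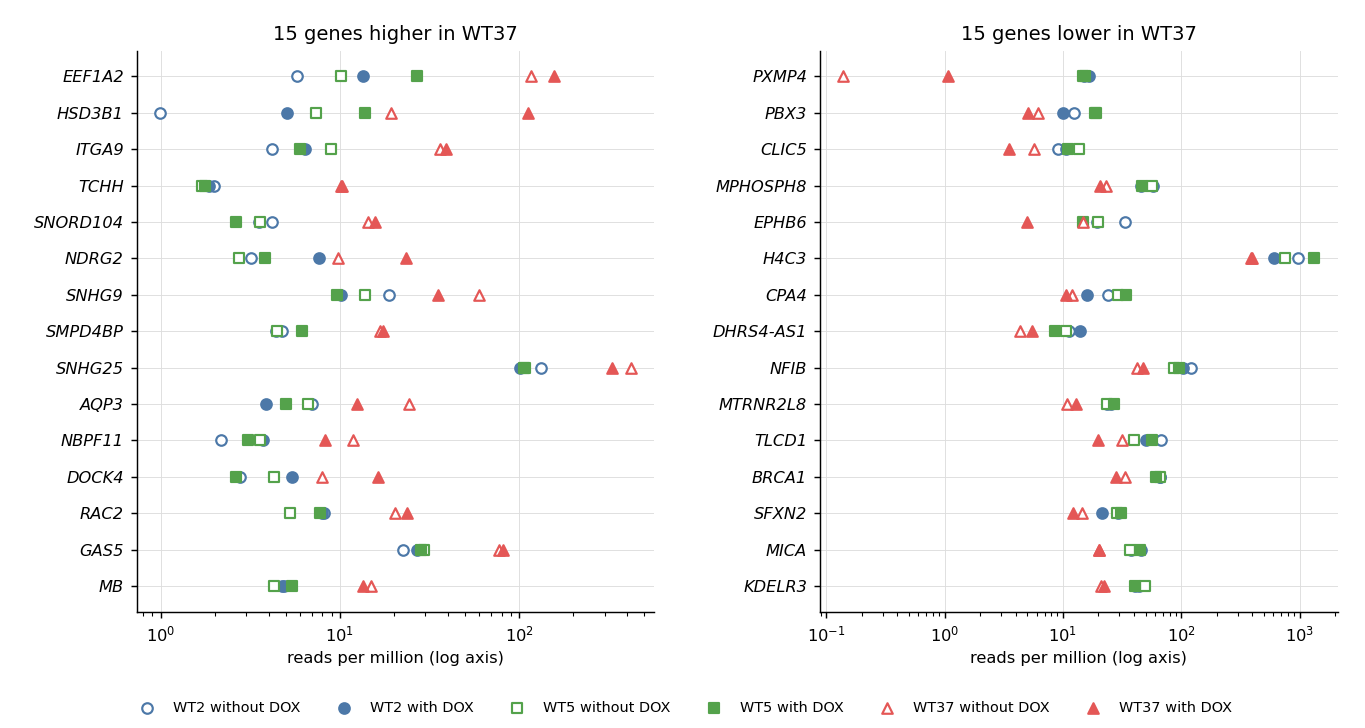
Level of the 15 genes with the largest difference in each direction (CPM, log axis), with 1 point for each library, open without DOX and filled with DOX. Both WT37 libraries (triangles) lie beyond all 4 libraries of WT2 (circles) and WT5 (squares) in every gene shown, since the genes were chosen so, and PXMP4 stands at 0.14 and 1.07 CPM in WT37.

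The plot of the leading genes shows those with the largest differences among called genes of at least 10 CPM on their higher side. After EEF1A2 came HSD3B1, an enzyme of steroid hormone synthesis with the near-identical paralog HSD3B2, at 0.992, 5.07, 7.35 and 13.9 CPM in the other clones and 19.4 and 112 CPM in WT37 (log2 difference 3.02 ± 0.45, adjusted p = 0.00991). Its level was higher in the library with DOX of every clone, and its lowest WT37 value was close to the highest of the others. TCHH, the hair follicle protein trichohyalin, was steadier, at 1.71 to 1.98 CPM in the others and 10.2 and 10.3 in WT37 (log2 difference 2.48). RAC2, a small GTPase known from blood cells, had 5.3 to 8.14 CPM in the others and 20.3 and 23.6 in WT37. DOCK4, which activates a GTPase of the same family, had 2.64 to 5.41 CPM against 8.0 and 16.3. The other higher genes of this group were the snoRNA SNORD104 (log2 difference 2.12), its host SNHG25 and the hosts SNHG9 and GAS5 described below, NDRG2, the water and glycerol channel AQP3 (3.89 to 6.95 CPM against 24.3 and 12.5), the pseudogene SMPD4BP, NBPF11 and myoglobin (MB, 4.27 to 5.42 CPM against 15 and 13.5), with log2 differences of 1.55 to 1.92 for all but SNORD104. Reads counted for SNORD104 may belong to SNHG25, which it lies within.

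Among the lower genes, NFIB, a transcription factor of the nuclear factor I family, had 120 and 104 CPM in WT2, 86.3 and 95.7 in WT5 and 42.0 and 47.8 in WT37 (log2 difference -1.17 ± 0.15, adjusted p = 0.00509). PBX3, a homeodomain cofactor of HOX proteins, had 9.97 to 19 CPM against 6.17 and 5.09. MPHOSPH8, a subunit of the HUSH complex that silences genes through histone H3 lysine methylation, had 45.9 to 57.5 CPM against 23.2 and 20.8 (log2 difference -1.24 ± 0.16, adjusted p = 0.00407). BRCA1 (ENSG00000012048, chr17:43044295-43170245), a protein of DNA double-strand break repair, had 66.7 and 65.7 CPM in WT2, 66.6 and 61.1 in WT5 and 33.5 and 28.4 in WT37. The 4 other libraries of BRCA1 thus agreed closely and both WT37 libraries were lower by about as much as each other (log2 difference -1.07 ± 0.12, adjusted p = 0.00274). BRCA1 was the only gene called by edgeR among 28 tested of the mismatch and DNA repair list (3.57%, near the 3.3% of all genes), whose median was -0.17.

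The remaining lower genes of that plot have varied roles. KDELR3, a receptor that returns proteins from the Golgi to the endoplasmic reticulum, had 40.7 to 49.5 CPM in the others and 20.9 and 22.1 in WT37. MICA, a stress-induced ligand for the NKG2D receptor of immune cells, had 36.9 to 46.2 CPM against 20.3 and 20.2. CLIC5 (a chloride intracellular channel protein), EPHB6 (an ephrin receptor without kinase activity), the carboxypeptidase CPA4, SFXN2 (a mitochondrial membrane protein), TLCD1, the histone H4 gene H4C3, DHRS4-AS1 and MTRNR2L8 had log2 differences of -1.04 to -1.3. EPHB6 was the least separate of these, with 14.7 CPM in WT37 without DOX beside a lowest value of 14.9 in the others. Annotated genes overlap on the other strand of NFIB, BRCA1 (NBR2 and RPL21P4), KDELR3 (DDX17), TLCD1 (RPL23A and NEK8), DHRS4-AS1 (DHRS4 and DHRS4L2), NDRG2 (ARHGEF40), NBPF11, DOCK4 and ITGA9 (ITGA9-AS1), and on the same strand of MICA (HCP5), BRCA1 (AC060780.1) and ITGA9 (RPL21P135). The sources used here do not say if counting was by strand, so reads of such pairs cannot be told apart.

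The 43 lists were chosen with earlier results of these data known, so their shares describe and are no independent support. Among them, host genes of snoRNAs had the largest share of calls. Of 19 listed hosts, all tested, 9 were higher in WT37 and 1 was lower, which is 52.6% of the list against 3.3% of all genes, and the median log2 difference was 0.26 against 0.001. The 9 were the non-coding hosts GAS5, SNHG1, SNHG3, SNHG5, SNHG7, SNHG12, SNHG15, ZFAS1 and EPB41L4A-AS1. The lower one was EEF1B2, a coding host for a subunit of the translation elongation factor complex. When a library was left out, 8 or 9 hosts were higher without any 1 library of WT2 or WT5, 3 without WT37 without DOX and 2 without WT37 with DOX. Numbers below for the wider family named SNHG (small nucleolar RNA host gene) were added after the values were seen.

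The starts of the transcripts are shown because many genes of the translation machinery begin with a C and an unbroken run of pyrimidines (C or T). Each line gives 5 bases before the RefSeq start (GRCh38.p14) and the first 25 bases of the transcript on its own strand, and the capitals mark the run of pyrimidines from the first base, where there is one. They belong to the called hosts that were found in the table, which were 10 of 13.
SNHG12: agcgcCCTTTCTCCCCgccgcattcccggt
SNHG19: cctgtCTTTTCggggtcgagtccgaggggg
SNHG32: tagttCTTTTTgcgaagtgggctcgtgggt
SNHG5: tcggtCTTTTacgtcggccttcgcgagcgt
ZFAS1: tcgttCTTTCgcgtctgcggtgcccggagt
SNHG7: tcgtcCTCTgcgtgcgccggaggctgccgt
SNHG1: tcgttCTCatttttctactgctcgtggtaa
EPB41L4A-AS1: aattcTgtcgggtcccaaaatacgtggtct
SNHG3: tttctgattctctaactgcgcatgcttctg
GAS5: aattcagatgtgtttattttggagcctaca

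The windows lie at chr1:28581849-28581878 for SNHG12, chr16:2155334-2155363 for SNHG19, chr6:31834911-31834940 for SNHG32, chr6:85678709-85678738 for SNHG5 and chr20:49278637-49278666 for ZFAS1. Those of SNHG7, SNHG1 and EPB41L4A-AS1 lie at chr9:136728160-136728189, chr11:62855861-62855890 and chr5:112160521-112160550, and those of SNHG3 and GAS5 at chr1:28505938-28505967 and chr1:173869021-173869050. A C followed by at least 4 pyrimidines was found at the start of 5 of these 10 hosts (50%), namely SNHG12, SNHG19, SNHG32, SNHG5 and ZFAS1. It was found in 3 of 16 hosts not called higher (18.8%), in 43 of 61 genes of ribosomal proteins (70.5%) and in 495 of 9005 tested genes with a listed promoter (5.5%). Only the strand of the gene was read. RefSeq gives 1 start for each gene, and other starts were not looked at. The window of GAS5 lies outside its GENCODE 29 gene (chr1:173863900-173868882), and that of SNHG12 lies well inside its gene (chr1:28578538-28583132). What is shown for these hosts, with or without a run, therefore holds for the RefSeq start only. The run was found in a larger share of the higher hosts and of the ribosomal protein genes than of all tested genes. Ribosomal protein genes lay mostly below the other clones. Any part of the run in these levels was not tested.

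GAS5 (ENSG00000234741, chr1:173863900-173868882), the host of the largest difference on the list, had 22.6 and 26.9 CPM in WT2, 29.6 and 28.4 in WT5 and 77.3 and 81.8 in WT37. Its 2 WT37 libraries were alike and far above the 4 others (log2 difference 1.56 ± 0.13, adjusted p = 0.00048), with 1.57 without DOX and 1.56 with DOX. SNHG1 (ENSG00000255717, chr11:62851988-62855914) had 34.7 and 30.4 CPM in WT2, 36.6 and 38.7 in WT5 and 106 and 94.4 in WT37 (log2 difference 1.51 ± 0.12, adjusted p = 0.00048). SNHG12 and SNHG7 stood at 11.6 to 17.5 and 22.6 to 26.5 CPM in the others and at 37.3 and 28.7 and 56.1 and 55.8 CPM in WT37. SNHG3 had 21.8 to 26.5 CPM against 58.7 and 41.6, and SNHG15 had 11 to 14.5 against 21.7 and 23.2. SNHG5 and ZFAS1, the most abundant of the 9, had smaller differences (0.78 ± 0.11 and 0.70 ± 0.11 on the log2 scale), at 130 and 137 CPM against 70.7 to 83.2, and 184 and 199 CPM against 109 to 128. The groups did not overlap in any of the 9.

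In the wider SNHG family, 10 of 21 tested members were higher (beside 1.81% of all genes), 0 were lower and the median log2 difference was 0.64. Beyond those named, they were SNHG9, SNHG19, SNHG25 and SNHG32. SNHG25 (ENSG00000266402, chr17:64145970-64146476) had 133 and 101 CPM in WT2, 108 and 107 in WT5 and 420 and 329 in WT37. It had the smallest p of the 4 (log2 difference 1.73 ± 0.11, adjusted p = 0.000142). SNORD104, annotated as a snoRNA inside it on the same strand, was higher by 2.12 ± 0.24, at 14.3 and 15.8 CPM in WT37. The kit reads near poly(A) tails, so reads counted for SNORD104 may come from the host RNA, and the snoRNA itself may not have been measured. SNHG9 (ENSG00000255198, chr16:1964959-1965509) had 9.67 to 18.9 CPM against 59.8 and 35.1 (log2 difference 1.85 ± 0.16). SNHG19 had 23.6 to 30.2 CPM against 65.2 and 64.4, and SNHG32 had 84.0 to 102 against 159 and 174. Of the coding hosts on the list none was called higher. RACK1 (log2 difference -0.20), NCL (-0.10), NOP56 (-0.17) and TAF1D (-0.17) did not pass the test, and neither did the non-coding hosts SNHG6 (0.24), SNHG8 (0.26), SNHG16 (0.03), SNHG29 (-0.23) and DANCR (-0.02). Genes overlap on the other strand of GAS5 (ZBTB37 and GAS5-AS1), SNHG7 (FAM69B) and SNHG12 (TRNAU1AP).

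**Figure D2:**
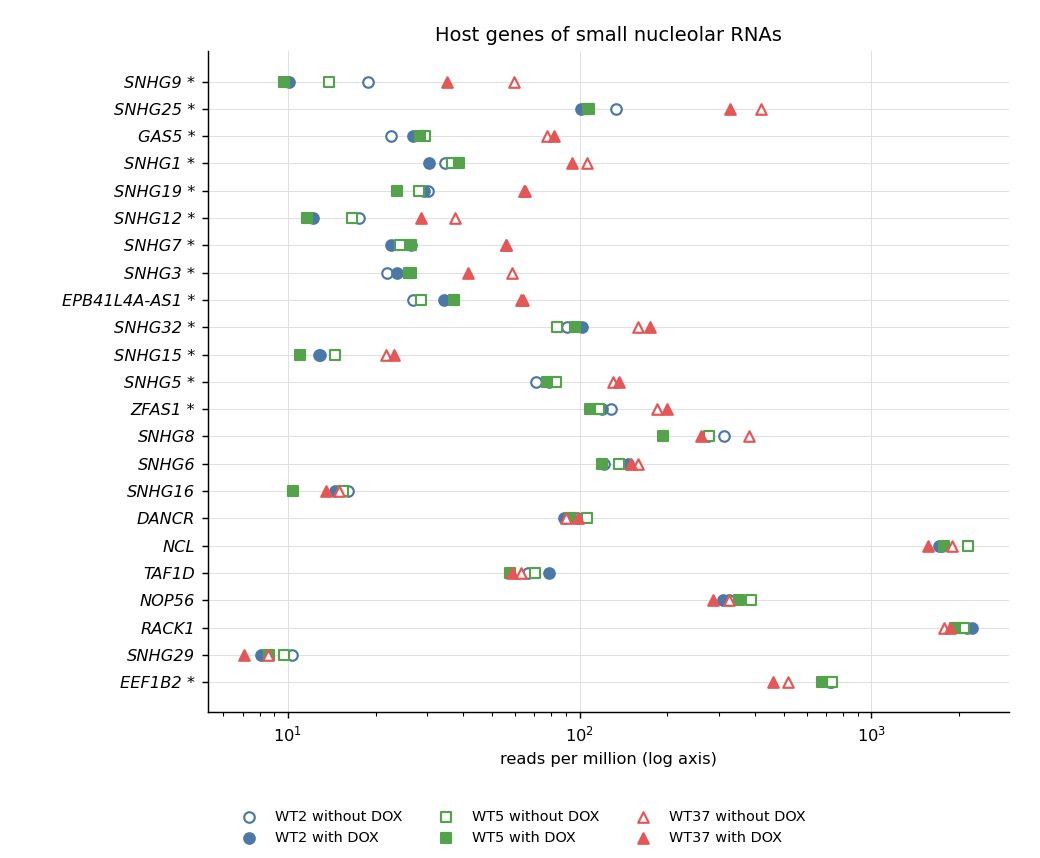
Level of 23 host genes of snoRNAs in each library (CPM, log axis), ordered by the log2 difference of WT37, with an asterisk on genes called in either direction. The WT37 triangles lie apart to the right in the upper 13 genes, overlap the other libraries in the middle and lie to the left in EEF1B2.

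Of 860 long non-coding RNAs tested, 21 were higher (2.44%) and 3 were lower (0.349%), whereas of 10508 protein-coding genes 189 were higher (1.8%) and 169 were lower (1.61%). Host genes of snoRNAs made up 12 of the 21. Of the 836 other long non-coding RNAs 9 were higher (1.08%) and 3 were lower (0.359%).

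Genes of ribosomal proteins lay slightly below the other clones, mostly without passing the test. Of 43 tested genes of the large subunit, 41 had a log2 difference below 0, with a median of -0.22, and 2 were called, both lower (4.65%, beside 3.3% of all genes). One of them was RPLP0, the stalk protein, at 3590 to 4260 CPM in the others and 2930 and 2700 in WT37 (log2 difference -0.48 ± 0.11, adjusted p = 0.0432). Of 33 tested genes of the small subunit, 31 were below 0 with a median of -0.24, and edgeR called 0, with 13 under an unadjusted p of 0.05, while DESeq2 called 2 and limma-voom 0. Over all genes tested 5880 of 11789 lay below 0. Both WT37 libraries lay below all 4 others in 25 of the 43 and 15 of the 33, beside 13.9% of all genes. The medians stayed below 0 under every alternative, at -0.28 to -0.15 and -0.30 to -0.13. Ribosomal protein genes have many processed copies in the genome, and reads that map to several places were not counted.

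Genes of sterol and fatty acid synthesis had the next largest share of calls among the 43 lists, close to that of the differentiated colonocyte list (22.2%, 2 of 9). Of 31 tested, 7 were higher and 0 were lower (22.6% called, beside 3.3% of all genes), with a median log2 difference of 0.29. In 15 of the 31 both WT37 libraries lay above all others, beside 15.2% of all genes. INSIG1 (ENSG00000186480, chr7:155297776-155310235), which holds the sterol sensor in the endoplasmic reticulum and is itself a target of the SREBP transcription factors, had 109 and 120 CPM in WT2, 95.3 and 106 in WT5 and 217 and 209 in WT37. The 2 groups were far apart and each was tight (log2 difference 0.99 ± 0.11, adjusted p = 0.00251). SCD, the stearoyl-CoA desaturase, had 360 to 469 CPM against 727 and 701 (0.81 ± 0.11, adjusted p = 0.00752). SREBF1, which encodes an SREBP, had 42.5 to 60.3 CPM against 80.4 and 86.1.

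Called too were 3 enzymes of the mevalonate and squalene steps. HMGCS1 had 69.8 to 83.4 CPM against 117 and 112, IDI1 had 49.5 to 63.2 against 78.2 and 104, and FDFT1 had 257 to 265 against 368 and 344. Among the members that did not pass were LSS (0.77 on the log2 scale), SQLE (0.29), FASN (-0.12) and SREBF2 (-0.05). The higher members therefore did not cover the whole pathway. The count was 6 without clone WT2, 12 without clone WT5 and 0 without either WT37 library, and 3 without the WT2 library without DOX. The median stayed above 0 in all 16 alternatives, at 0.22 to 0.36.

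**Figure D3:**
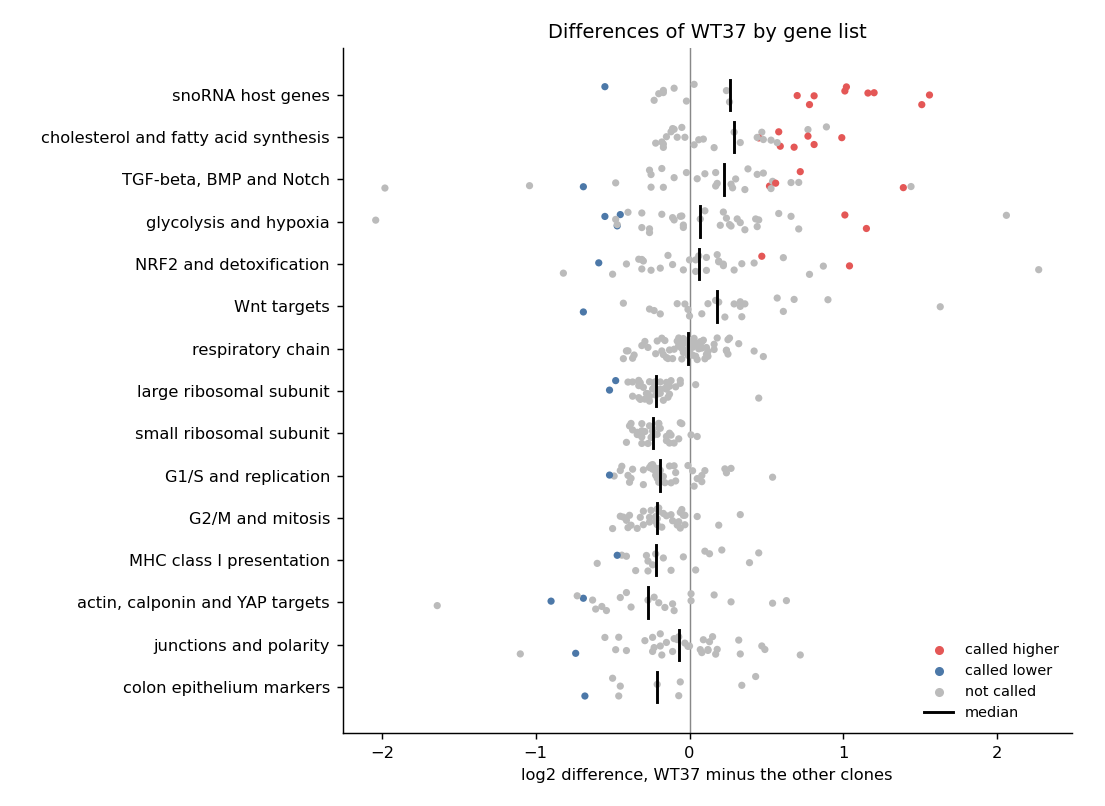
Log2 difference of WT37 from the other clones for the tested members of 15 gene lists, with 1 point for each gene, coloured by call, and a bar at the list's median. The snoRNA hosts hold 9 genes called higher, sterol and fatty acid genes hold 7, and the 2 ribosomal lists sit to the left of 0 with medians of -0.22 and -0.24.

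Proliferation genes lay a little lower without passing the test. Of 38 tested genes of the G2/M phase and mitosis, 35 were below 0 with a median of -0.21, and edgeR called 0, with 13 under an unadjusted p of 0.05, while DESeq2 called 1 and limma-voom 0. Of 40 genes of the G1/S phase and DNA replication, 30 were below 0 with a median of -0.20. The flap endonuclease FEN1 alone was called (2.5% of the list, near the 3.3% of all genes), at 289 to 320 CPM in the others and 233 and 193 in WT37 (log2 difference -0.52 ± 0.10, adjusted p = 0.0268). FEN1 shares its strand with FADS2 and faces TMEM258. CDKN1A, the p53 target p21, was level at 15.4 to 19.9 CPM against 19.2 and 19.5. CDKN1C, an imprinted inhibitor of the cell cycle, was higher at 66.1 and 74.7 CPM against 35.1 to 54.9 (0.80 ± 0.16, adjusted p = 0.0282). So was BBC3, the p53 target PUMA that promotes cell death, at 59.6 and 72.2 CPM against 27.0 to 42.8 (0.86 ± 0.16, adjusted p = 0.0206). BCL2L11, the related BIM, had 20.9 and 19 CPM against 11.3 to 12.9. Of the 30 genes of the p53 and cell cycle inhibitor list 2 were higher and none was lower (6.67% called, beside 3.3% of all genes), and of the 19 of the BCL2 family 2 were higher and none was lower, with BBC3 in both. In each list the count was 0 without either WT37 library or without the WT2 library without DOX, and 5 without clone WT5.

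Of 9 tested markers of colon epithelium 1 was lower, EPCAM (11.1%, beside 3.3% of all genes). Of the 9, 7 lay below 0, beside 5880 of all 11789 genes tested. The median log2 difference was -0.21, and it ran from -0.72 without the WT37 library without DOX to -0.14 without that with DOX. CDH1 (E-cadherin) had 777 and 537 CPM in WT2, 731 and 676 in WT5 and 891 and 457 in WT37, and the WT37 library was the highest of the 3 without DOX and the lowest with DOX (log2 difference -0.07 ± 0.15, adjusted p = 0.827). CDX2, the intestinal homeodomain factor, stood at 604 and 815 CPM in WT37 against 467 to 726 (0.34, adjusted p = 0.128). KRT20 (-0.45, adjusted p = 0.341) and the stem cell receptor LGR5 (0.33, adjusted p = 0.618) did not pass. EPCAM, an adhesion protein of epithelial cells, was lower. It had 1050 and 628 CPM in WT2, 945 and 734 in WT5 and 745 and 354 in WT37, so the groups overlapped unless libraries of 1 DOX state were compared (log2 difference -0.68 ± 0.14, adjusted p = 0.0286), and it was -0.42 without the WT37 library with DOX.

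Among keratins and among integrins and laminins, 1 of 6 and 1 of 20 tested members were lower and none was higher (16.7% and 5.0% called, beside 3.3% of all genes). The median was -0.45 for the keratins, with 5 of 6 below 0, and 0 for the integrins and laminins, with 10 of 20 above 0. These were KRT80 (-0.84 ± 0.15) and the integrin ITGB4 (-0.80 ± 0.16, and -0.47 without the WT37 library with DOX). ITGB4, the hemidesmosome integrin, had 121 to 152 CPM in the others and 101 and 57.6 in WT37. KRT80 had 57.8 to 87.5 CPM against 49.0 and 34. The transcription factor ELF3, which directs epithelial differentiation, was higher at 88.1 and 55.2 CPM against 31.9 to 45.1 (0.78 ± 0.15, adjusted p = 0.0268). TFF3, a peptide of goblet cell mucus, had 37.0 and 37.5 CPM against 11.8 to 20.5 (1.19 ± 0.20, adjusted p = 0.0187), while 9 of the 11 tested genes of the goblet list lay below 0. Of 9 tested genes of differentiated colonocytes, 2 were lower: PLAC8 (4.1 to 5.57 CPM against 1.54 and 1.74) and ezrin (EZR, 581 to 645 CPM against 444 and 469), the linker of microvilli to actin. Of the 9, however, 5 lay above 0, and the median of 0.09 turned sign in 4 of 16 alternatives.

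Genes of mesenchymal cells and matrix included 2 of 19 tested that were higher. S100A4, a calcium-binding protein linked to cell motility, had 7.15 and 11.5 CPM in WT2, 8.37 and 17.7 in WT5 and 14.2 and 36.3 in WT37, so that the WT37 library without DOX was below that of WT5 with DOX (log2 difference 1.11 ± 0.21, adjusted p = 0.0235). COL6A1, a chain of collagen VI, had few reads, with 13 and 40 in WT37 and 1 to 6 in the others. It passed the low-count filter only through the WT37 libraries, so its call is no independent support. VIM (vimentin) had 5 and 15 reads in WT37 and 1 to 8 in the others and was too low to be tested. The related S100P, a calcium-binding protein of epithelial tumours, was at 92.9 and 78.7 CPM against 24.2 and 19.8 in WT2 and 50.1 and 45.7 in WT5. WT5 thus lay between the other clones for S100P, and its log2 difference of 1.28 went to 0.84 without WT2 and to 1.97 without WT5.

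Of 23 tested genes of the list of actin, calponin and YAP targets, 17 were below 0, with a median of -0.27. In 10 of the 23 both WT37 libraries lay below all others, beside 13.9% of all genes. Of the 23, 2 were called, both lower (8.7%, beside 3.3% of all genes). ACTN4, the actin crosslinker alpha-actinin 4, had 176 to 193 CPM in the others and 110 and 121 in WT37 (log2 difference -0.69 ± 0.10, adjusted p = 0.0102), and calponin CNN2 had 12.8 to 15.9 CPM against 8.42 and 7.23. A wider family of 38 cytoskeleton and focal adhesion genes was put together after the values were seen, so its counts describe and support nothing. It held 35 tested genes, of which 16 were lower (beside 1.49% of all genes) and 0 were higher, with a median of -0.46. ACTB had 1250 to 1310 CPM against 817 and 801 and ACTG1 had 7490 to 9210 against 6010 and 5070, both by -0.65 on the log2 scale. Non-muscle myosin MYH9 had 641 to 764 CPM against 475 and 406, and LIMA1, which bundles actin, had 115 to 194 against 108 and 57.4. Beside them FHL2 (-0.79), CSRP1 (-0.86), CAVIN1 (-0.79), LMNA (-0.62), TPM3 (-0.52) and TLN1 (-0.48) were lower. The count of 16 was 1 without the WT37 library without DOX, 0 without that with DOX, and 5 without the WT2 library without DOX.

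Signal pathways of the TGF-beta family and Notch had 4 higher and 1 lower gene among 32 tested (15.6%, beside 3.3% of all genes), with a median of 0.22. ID3 and ID1, inhibitors of helix-loop-helix factors that BMP signals switch on, had 229 and 308 CPM against 120 to 220 and 750 and 730 CPM against 435 to 604. The log2 difference was 0.72 ± 0.12 for ID3 (adjusted p = 0.0147) and 0.52 ± 0.11 for ID1 (adjusted p = 0.0377, and 0.33 without the WT37 library without DOX). SMAD6, which restrains BMP signals, had 2.18 to 5.24 CPM against 5.05 and 12. JAG1, a Notch ligand, had 79.4 to 104 CPM against 99.2 and 177. The ligand BMP4 itself was lower, with 999 and 1100 CPM in WT2, 747 and 905 in WT5 and 542 and 619 in WT37 (-0.69 ± 0.13, adjusted p = 0.0268). BMP4 is a member of the Wnt target list too, where it was the only called gene of 24 (4.17%, near the 3.3% of all genes). AXIN2 stood at 179 CPM in WT37 without DOX and 415 with DOX against 165 to 247 (0.57, adjusted p = 0.146). In the anterior HOX genes, HOXB3 (30.4 and 34.5 CPM against 15.2 to 19.4) and HOXB4 (17 and 21.4 against 8.79 to 13) were higher, the 2 called of 26 tested HOX genes (7.69%). HOXB4 lies within HOXB3 on the same strand, so these may share reads.

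Metabolic genes moved in both directions. Of 37 tested genes of glycolysis and hypoxia, 2 were higher and 3 were lower (13.5% called, beside 3.3% of all genes). The higher ones were NDRG1, at 81.2 and 94.4 CPM against 33.1 to 56.7, and the carbonic anhydrase CA12, at 26.5 and 28.0 CPM against 8.53 to 16.4, both known to rise in low oxygen. The lower ones were the glycolytic enzymes ENO1 (2170 to 2320 CPM against 1700 and 1390), ALDOA (1560 to 1840 against 1200 and 1210) and TPI1 (812 to 889 against 668 and 589). Of 33 tested genes of NRF2 and detoxification, HMOX1 (heme oxygenase, 94 and 114 CPM against 26.4 to 67.4) and MGST3 (433 and 433 against 291 to 340) were higher and thioredoxin TXN (425 and 412 against 521 to 680) was lower. These calls were 9.09% of that list, beside 3.3% of all genes. NQO1, the usual NRF2 reporter, did not pass (0.42 ± 0.23, adjusted p = 0.336). Of 68 tested genes of the respiratory chain edgeR called 0, with 9 under an unadjusted p of 0.05, while DESeq2 called 1 and limma-voom 0, and the median was -0.01. Of the stress genes driven by ATF4, NUPR1 (2.95 and 7.5 CPM against 0.732 to 1.86) and CTH, an enzyme of cysteine synthesis (15.7 and 14.3 CPM against 5.75 to 9.22), were higher among 29 (6.9%, beside 3.3% of all genes). NUPR1 had few reads, with 21 and 56 in WT37 and 4 to 11 in the others. It would not have passed the low-count filter without the WT37 libraries, so its call is no independent support. The summed level of the ATF4 list was 3850 and 3880 CPM in WT37, between WT2 (3050 and 2960) and WT5 (4200 and 5030). Its median of 0.14 was -0.15 without clone WT2 and 0.45 without clone WT5, where 16 members were higher. Genes overlap on the other strand of ENO1, SREBF1 (RAI1), ITGB4 (GALK1), ELF3, EZR, KRT80, ACTN4 (CAPN12), BCL2L11, TET2 and SLC27A2, and S100A3 overlaps S100A4 on the same strand.

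Among 189 tested solute carriers, 4 were higher and 2 were lower (3.17%, near the 3.3% of all genes). The amino acid carrier SLC7A8 had 465 and 935 CPM in WT37 against 292 to 473, and the vitamin C carrier SLC23A2 had 24.4 and 34.9 against 12.7 to 18.8. The mitochondrial nucleotide carrier SLC25A36 had 64.5 and 57.8 CPM against 38.0 to 45.6, and the fatty acid carrier and activator SLC27A2 was lower at 81.4 and 63.6 CPM against 104 to 117.

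Of 19 tested genes of MHC class I presentation edgeR called 1 (5.26%, beside 3.3% of all genes), which was lower. B2M, the light chain of MHC class I, had 402 and 472 CPM in WT2, 396 and 491 in WT5 and 252 and 394 in WT37, a log2 difference of -0.47 ± 0.11 (adjusted p = 0.0489) that was -0.30 without the WT37 library without DOX. Of the 19 genes 13 were below 0 and 6 above, with a median of -0.22 that was -0.06 without clone WT2. The NF-kappaB subunit RELB was lower at 28.6 to 49.0 CPM against 25.3 and 19.3 (-0.91 ± 0.17, adjusted p = 0.0246), and the chemokine CXCL3 was higher on few reads, with 38 and 14 in WT37 and 1 to 6 in the others. CXCL3 passed the low-count filter only through the WT37 libraries, so its call is no independent support. Of the 26 tested interferon-stimulated genes, 8 were under an unadjusted p of 0.05 in edgeR, and edgeR, DESeq2 and limma-voom called 0. Among other named genes, TET2, which oxidises methylated DNA, was higher (26 and 29.3 CPM against 16.4 to 18.7), and ANXA3 (97.8 and 63.7 against 113 to 141), the ephrin EFNA5 (10.1 and 11.6 against 15.8 to 21.8) and the chaperone HSPA1B (70.3 and 74.4 against 96.5 to 114), which has a near-identical copy, were lower. EFNA5 and EPHB6 were the 2 called of 12 tested ephrins and ephrin receptors (16.7%, beside 3.3% of all genes). Of the 12, however, 9 lay above 0, with a median of 0.31, and limma-voom called 0 while DESeq2 called 2. HSPA1B and TET2 were the only called genes of 29 and 34 tested on their lists (3.45% and 2.94%, near the 3.3% of all genes).

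The families here and in the next paragraph were put together after the values were seen, so their counts describe and support nothing. Over all genes tested 1.81% were called higher and 1.49% lower. Genes of nuclear speckles and of splicing control with SR proteins held 9 higher and 0 lower among 29 tested, yet their median was 0.01. The count was 1 without the WT37 library without DOX and 0 without that with DOX, 3 without the WT2 library without DOX, 5 without the WT2 library with DOX or the WT5 library without DOX, and 4 without clone WT2. The 9 were the kinases CLK1 (24.7 and 31.6 CPM against 12.1 to 16.3) and CLK2, the cyclins CCNL1 (27.4 and 33.7 against 15.4 to 17.9) and CCNL2, SRSF5, PNISR, ARGLU1, RSRP1 and the nuclear RNA NEAT1. NEAT1, the scaffold of paraspeckles, had 27.6 and 38.7 CPM in WT2, 31.4 and 27.7 in WT5 and 73.1 and 89.6 in WT37 (log2 difference 1.37 ± 0.14, adjusted p = 0.0019). Genes of vesicle coats and of protein return to the endoplasmic reticulum held 9 lower and 0 higher among 35, with a median of -0.30 and 31 genes below 0. The count was 1 and 0 without the WT37 library without and with DOX, 4 without the WT2 library without DOX and 17 without clone WT5. ARF4, a GTPase of Golgi traffic, had 1030 and 820 CPM in WT2, 1030 and 804 in WT5 and 511 and 431 in WT37 (-0.96 ± 0.10, adjusted p = 0.00158). No library of WT2 or WT5 came near the WT37 values of ARF4. CREB3, a Golgi stress factor, had 149 to 197 CPM against 100 and 85.0, SRPRA, the receptor of the signal recognition particle, had 54.5 to 62.2 against 29.9 and 28.0, and COPA, COPG1, SEC13, SURF4 and KDELR2 were lower by -0.46 to -0.70 on the log2 scale.

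Copies of mitochondrial DNA in the nuclear genome were lower too, with 4 of 9 tested called and all 9 below 0 (median -1.22). For these families too, the shares over all genes tested were 1.49% called lower and 1.81% called higher. The most abundant, MTATP6P1, had 89.7 and 179 CPM in WT2, 74.0 and 198 in WT5 and 35.4 and 80.2 in WT37 (-1.22 ± 0.13, adjusted p = 0.0019). Reads of mitochondrial transcripts and of these copies cannot be told apart where they are alike, no gene of the mitochondrial chromosome was analysed here, and the share of reads mapped to several places was lower in both WT37 libraries. The metallothioneins MT2A (1710 to 2140 CPM against 1050 and 1260) and MT1E (854 to 1040 against 571 and 632), which bind zinc and copper, were lower, 2 of 4 tested. In the NBPF family of near-identical genes on chromosome 1, NBPF11, NBPF12 and NBPF19 were higher, 3 of 6 tested. NBPF19 had 2 to 8 reads in the other clones and 48 and 37 in WT37. Without the WT37 library without DOX and without that with DOX, 1 and 0 of the mitochondrial copies were lower, 0 metallothioneins were lower and 0 genes of the NBPF family were higher.

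A search for genes with at most 3 reads in each library of one side and at least 30 in each library of the other found 0 genes in either direction. With up to 10 reads allowed on the low side, PXMP4 was near absent from WT37, and NBPF19 and NECTIN3 were near absent from the other clones. NECTIN3, an adhesion protein of cell junctions, had 1 and 4 reads in WT2, 1 and 1 in WT5 and 33 and 61 in WT37 (adjusted p = 0.00238). Named after their values were seen, C1orf127 had 36 and 27 reads in WT37 and 1 read in the 4 other libraries together, and CGNL1, the junction protein paracingulin, had 15 and 45 reads in WT37 and 0 to 4 in the others. NECTIN3, NBPF19, C1orf127 and CGNL1 passed the low-count filter only through the WT37 libraries, where they are high. A p-value for such a gene is no independent support. NECTIN3 and CGNL1 are both junction genes, while the junction list as a whole had no higher member and a median of -0.07.

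No autosome stood apart as a whole. The median log2 difference was -0.05 to 0.05 on the 22 autosomes, and the share called ran from 0.511% higher on chromosome 19 to 3.37% on chromosome 20 and from 0 lower on chromosome 21 to 2.72% on chromosome 22. Of 223 windows of 10 Mb with at least 20 tested genes, 185 had a median within 0.1 of 0, 4 were above 0.2 and 0 were below -0.2. The highest were chr1:140000001-150000000 (median 0.26, 31 genes), which holds part of the NBPF family, chr6:110000001-120000000 (0.22, 33 genes), chr6:20000001-30000000 (0.21, 70 genes) and chr19:20000001-30000000 (0.21, 21 genes). The lowest was chr2:1-10000000 (-0.18, 28 genes). Neighbours of the leading genes were called in some places. Within 1 Mb the count was 0 of 14 tested genes around ITGA9 (2 under an unadjusted p of 0.05), 0 of 8 around HSD3B1 (2) and 0 of 6 around GAS5 (1), and DESeq2 and limma-voom called 0 of these too. Around EEF1A2, 1 of 30 was higher (PCMTD2) and 1 was lower (PRPF6). Around SNHG1, 1 of 32 was higher (PLAAT3) and 3 were lower (AHNAK, HNRNPUL2 and STX5), with 15 under an unadjusted p of 0.05.

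**Figure D4:**
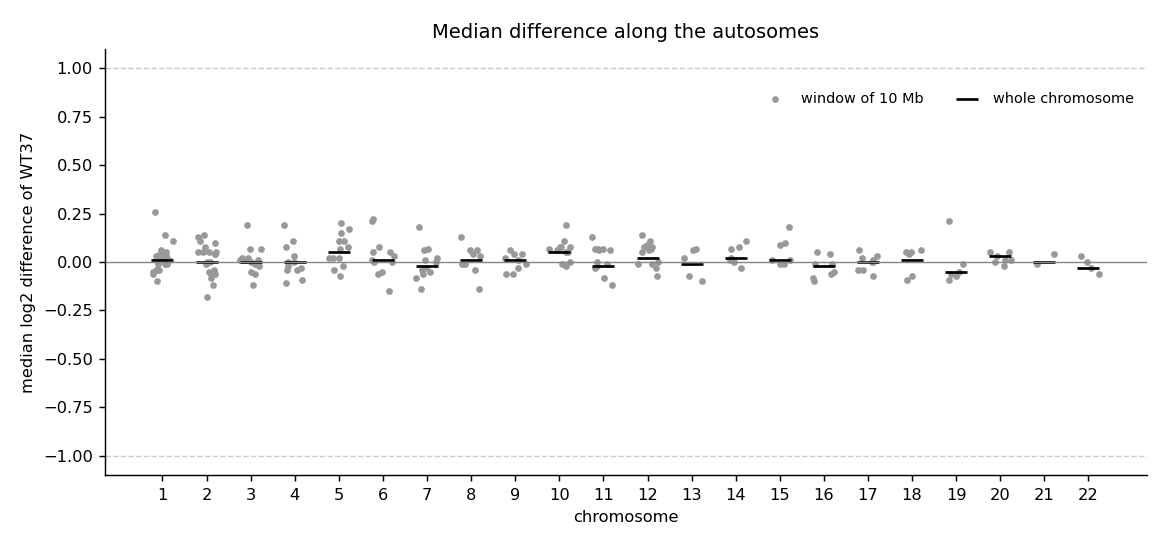
Median log2 difference of WT37 from the other clones in windows of 10 Mb (grey points) and on whole autosomes (black bars), with dashed lines at differences of 1 and -1. All chromosome medians lie between -0.05 and 0.05, and the highest window stands at 0.26.

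The differences were present in both DOX states. All 389 called genes had the same sign without and with DOX, which follows in part from a test that used both libraries. A test of the interaction, which asks whether the difference of WT37 changed with DOX, called 0 genes by edgeR and 0 by limma-voom, with 212 genes under an unadjusted p of 0.05 in edgeR. DESeq2 called 1, CCN1, a secreted matrix protein and YAP target (ENSG00000142871, chr1:85580761-85583962). It had 178 and 175 CPM in WT2, 155 and 162 in WT5 and 117 and 320 in WT37, so WT37 was the lowest without DOX and the highest with DOX (interaction 1.42 ± 0.31 and adjusted p = 0.0365 in DESeq2, 1.43 ± 0.25 and adjusted p = 1.0 in edgeR). Each WT37 value in a DOX state is 1 library, so differences of this kind would have to be large to be seen. The size of the difference still varied between states in some genes. PXMP4 stood at -5.32 without DOX and -3.60 with DOX, EEF1A2 at 3.88 and 3.02, HSD3B1 at 2.67 and 3.69, and EPCAM at -0.42 and -0.94.

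**Figure D5:**
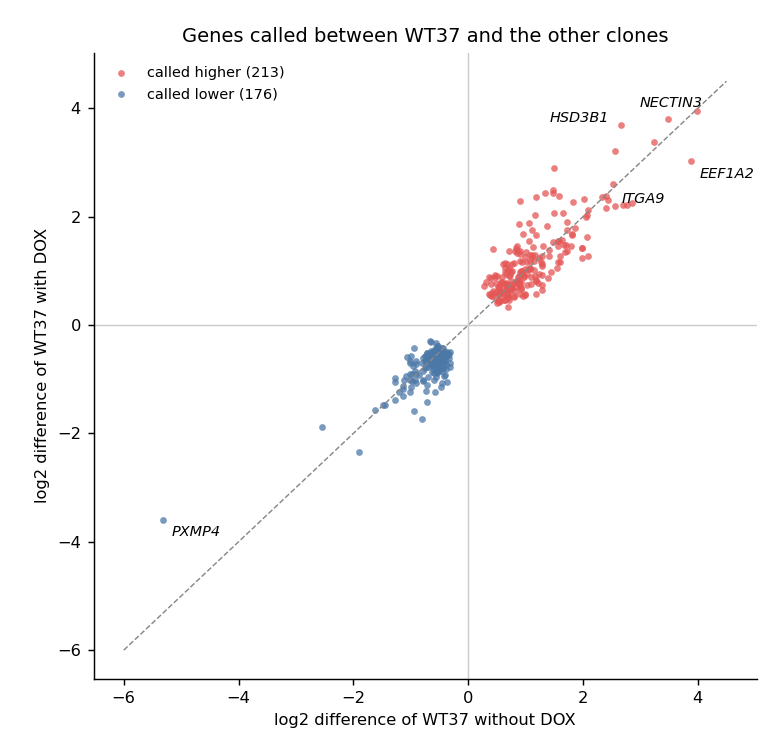
Log2 difference of WT37 from the mean of WT2 and WT5 without DOX (horizontal) and with DOX (vertical) for the 389 called genes, with the dashed line where both are equal. All points lie in the lower left or upper right, and PXMP4 stands alone at -5.32 and -3.60.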

How the data were processed

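RNA of 6 libraries was measured with a 3' mRNA kit, per the labels' protocols. The authors deposited whole-number read counts per Ensembl gene, with GRCh38 and DESeq2 named in the submitters' processing notes and the aligner, counter and annotation not given in the sources used here. Of 27264 gene rows, 879 on X or Y and 4 rows that name no gene (32.2% to 39.8% of reads) were left out. Positions are GENCODE 29; 350 of the 26385 genes left had none and 21405 had a symbol.

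Counts were tested with edgeR 4.0.16 in R 4.3.3 (TMM, filterByExpr, quasi-likelihood, terms for WT37 and DOX, 3 residual degrees of freedom, biological coefficient of variation 13.2%), and CPM use TMM sizes. Standard errors are the change divided by the root of F. Per-library log2 values carry 0.25 CPM. limma 3.58.1, DESeq2 1.42.0, other filters and scalings, and each library or clone left out were alternatives. The script was tested on simulated data. DOX was kept as a covariate because each clone has 1 library in each DOX state.

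The members and lists were chosen with earlier results of these data known. Named genes are the 15 largest called differences in each direction with at least 10 CPM on the higher side and no overlap between groups, up to 4 called members of each of 43 lists by p, 12 fixed markers, genes near 0 on one side and genes called in the interaction. Other genes and families were named after their values were seen. Some genes that the rule names are not reported here.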

Additional observations from a re-analysis of the deposited data

How the results depend on the processing

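The 82 called named genes kept their sign in each of the 17 fits that measured them (74 were measured in all 17), and 65 of the 389 genes were called in each of the 15 fits that kept both WT37 libraries. Against 389, the count was 1147 with no filter, 1064 with a term for each clone, 183 with no replicate block for DOX, that is without pairing libraries by DOX state, 1714 without clone WT5 and 8 when a fold of 2 was tested. Leaving out 1 library gave 7 to 542 genes. DESeq2 called 477 (181 higher and 296 lower, 37.9% higher against 54.8%), limma-voom 451, the stricter filter 333 and the other scaling 389. Deviations of libraries of 1 DOX state from their clone means correlated across genes at 0.082 (WT2 with WT5), 0.45 (WT2 with WT37) and 0.17 (WT5 with WT37). The interaction test called 0 genes in edgeR and 1 in DESeq2. The cause of these moves was not tested, other than that fewer libraries or fewer genes enter some of the fits. Of 45 lists with at least 3 tested members, 14 had a median that turned sign in some alternative, among them the junction, respiratory chain, glycolysis, NRF2 and splicing lists, while the snoRNA host, sterol, ribosomal, G2/M and actin lists kept theirs. The stricter filter left no tested gene of the MHC class II list, so it gave no median there. With 2 libraries of 1 clone, depth limits low genes such as ZEB2, VIM and COL6A1.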
